A study of Mus musculus with 6 samples.

Results

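Integrins, laminins and the other basement membrane genes were followed in dorsal root ganglia, the clusters of sensory neuron cell bodies and their glia beside the spinal cord. The members were chosen by symbol: the integrin alpha subunits Itga1 to Itga11 and Itgav, the beta subunits Itgb1 to Itgb8, the laminin alpha, beta and gamma chains, and Nid1, Nid2, Hspg2, Agrn, Dag1, Fn1, Tnc, Tnr and Vcan. All 40 symbols were found among the 55809 of the count tables. The samples were 6 ganglion pools of 3 mice each, all C57BL6J offspring at 8 weeks of age. The 3 control pools came from dams that were left undisturbed. The 3 prenatal stress pools came from dams that were restrained in tubes and brightly lit, in 3 daily sessions of 30 min, from embryonic day 13 to 18 in the protocol and from day 13.5 onward in the design text. All dams were 8 to 10 weeks old. The design text gives 9 mice per group and the protocol gives 3. The labels name no litter, cage or batch and no sex for a pool, so p-values reflect how far pools differed, which may not be how far litters differ.

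A basement membrane is a thin sheet of matrix built from laminin and collagen IV networks that nidogens and heparan sulfate proteoglycans link together. Laminins are trimers of 1 alpha, 1 beta and 1 gamma chain, and cells bind them through integrins, which are alpha and beta heterodimers, and through dystroglycan. In the peripheral nervous system such a sheet covers Schwann cells, satellite glia and blood vessels, and laminin supports myelination and the growth of sensory axons.

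The pools held 51.7 to 87.4 M gene counts, so counting error was small for most members, and precision was limited by having 3 pools per group. Markers of sensory neurons summed to 18852 to 19874 CPM (counts scaled to a common library size, with TMM factors) and those of myelinating Schwann cells to 7243 to 9489 CPM, and every marker of these lists was tested. Some pools stood apart. Control pool 3 had 2901 CPM summed over 12 skeletal muscle markers, where the other 5 pools had 20.2 to 63.9 CPM. Neutrophil and marrow markers ranged from 44.5 CPM in stress pool 1 to 410 CPM in stress pool 3, and central nervous system markers from 41.8 to 283 CPM. Both sexes are named in the labels, but the Y-linked Ddx3y stood at 77.5 to 81.1 CPM in the 6 pools. Xist, made from the inactive X chromosome, stood at 0.13 to 0.232 CPM. By these levels every pool was essentially male, with little or no RNA of females.

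As a group the members differed little between control and prenatal stress pools. Of 40 members tested, 1 passed edgeR's quasi-likelihood test at an adjusted p under 0.05 (2.5%, against 0.129% of all 20146 genes tested, 0.0447% lower and 0.0844% higher): the laminin receptor subunit Itga7, which fell. Members were chosen with that result known, so this share says nothing about the list. At an unadjusted p under 0.05 there were 4 lower members and 0 higher members, 10% of the 40, against 11.1% of all genes (5.11% lower and 6.01% higher). Control and stress pools did not overlap for 5 members, 12.5%, against 18.1% of all genes. All 5 were lower in the stress pools, against 8.76% of all genes that were lower and 9.33% that were higher without overlap. The median log2 fold change of stress against control was -0.05 over the members and 0.01 over all genes, and 24 members had negative values (60%, against 47.7%). For 35 members the 95% interval of the log2 fold change lay within 0.5 of 0 on both sides.

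**Figure D1:**
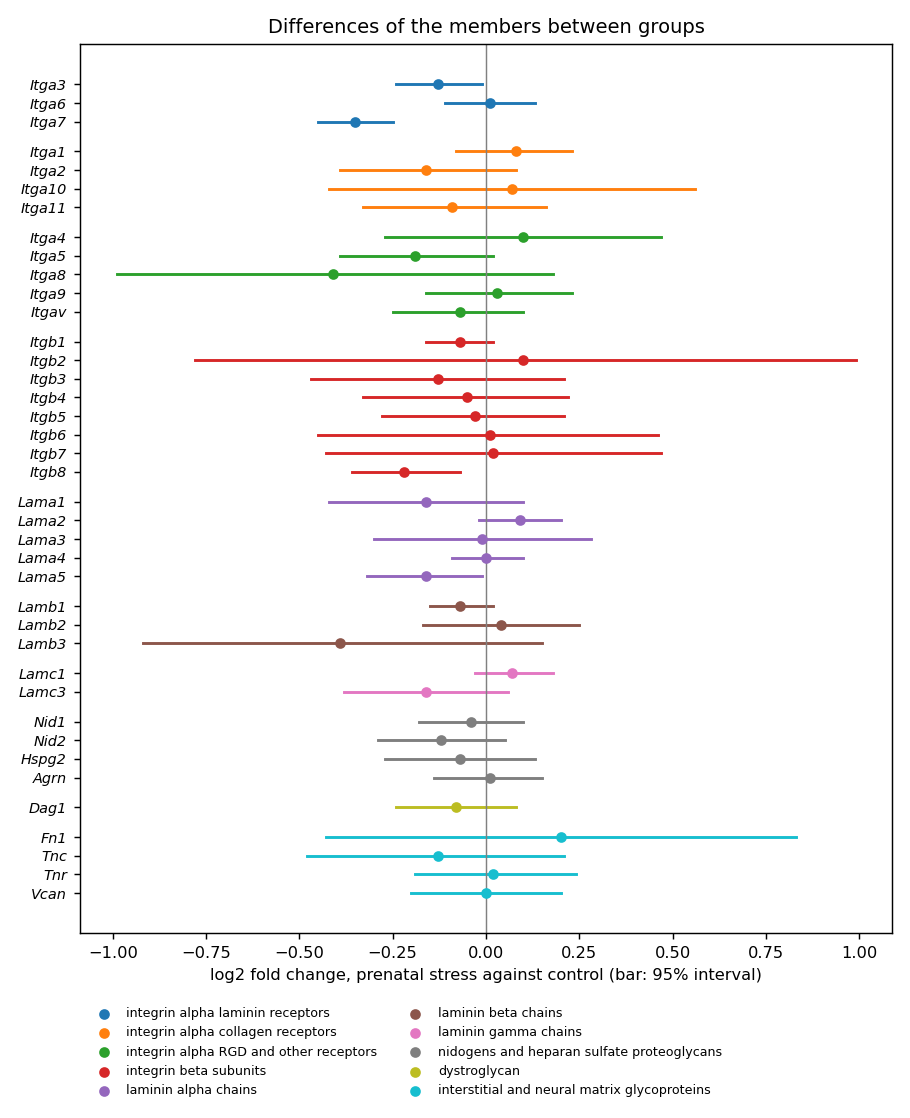
Log2 fold change of prenatal stress against control pools (x axis) for the members (y axis), with bars for the 95% interval and colours for the role of the gene. Itga7 lies farthest from 0 relative to its interval (-0.45 to -0.25), and the widest intervals belong to Itgb2, Itga8, Fn1, Lamb3 and Itga10.

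Itga3, Itga6 and Itga7 are the alpha subunits of the main laminin-binding integrins. Their transcripts are similar in coding sequence, so the longest exact stretches that Itga7 shares with the other two are shown to see how far reads could be exchanged. The stretches are in capitals, with 20 bases of flank on each side, and come from the GENCODE M21 transcript with the longest coding sequence.
Itga7 (transcript bases 2778 to 2836): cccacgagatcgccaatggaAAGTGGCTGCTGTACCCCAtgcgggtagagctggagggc
Itga3 (transcript bases 2824 to 2882): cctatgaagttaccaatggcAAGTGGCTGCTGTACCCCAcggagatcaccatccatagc
Itga7 (transcript bases 1335 to 1387): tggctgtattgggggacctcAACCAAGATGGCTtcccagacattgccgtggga
Itga6 (transcript bases 1266 to 1318): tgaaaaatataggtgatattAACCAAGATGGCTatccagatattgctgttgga
The longest shared stretch was 19 bases between Itga7 and Itga3 and 13 bases between Itga7 and Itga6, and both lie in coding sequence. Itga7 shares 9 of its 8092 exon bases with another annotated gene, Mettl7b on the opposite strand, and matched 0 pseudogene transcripts.

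Itga7, the alpha subunit that pairs with Itgb1 and is the main laminin integrin of skeletal muscle, is also known to be made by sensory neurons and to increase there after axotomy. It stood at 255, 241 and 264 CPM in control pools 1 to 3 and at 204, 197 and 195 CPM in stress pools 1 to 3. Every stress pool lay below every control pool. The mean fell from 253 ± 11.5 to 199 ± 4.6 CPM (SD, n = 3 pools each), a log2 fold change of -0.35 ± 0.04 SE (95% interval -0.45 to -0.25, edgeR adjusted p = 0.0404). In RNA from whole ganglia, fewer cells of a type and less RNA per cell cannot be told apart. With the replicate number of the labels as a block the call was lost (-0.35, adjusted p = 0.0726), and with an offset for GC content and length it was lost too (-0.34, adjusted p = 0.107). With both together it was kept (-0.34, adjusted p = 0.0251). Leaving out any 1 pool ended the call: the adjusted p was 0.182, 0.0768 and 0.135 without control pools 1, 2 and 3, and 0.186, 0.171 and 0.12 without stress pools 1, 2 and 3. The log2 fold change stayed between -0.39 and -0.32 over these and the other alternatives, whose adjusted p ranged from 3.54e-12 with DESeq2 to 0.186.

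Of the skeletal muscle markers, 12 of 12 had negative values, but the groups were apart for 0 of them. Their sums were 20.2, 51.6 and 2901 CPM in control pools 1 to 3 and 44, 63.9 and 56.2 CPM in stress pools 1 to 3. The negative values thus rest on control pool 3. Control pool 3 had the highest muscle sum (2901 CPM) and the highest Itga7 (264 CPM), and control pool 1 had the lowest muscle sum (20.2 CPM) and 255 CPM of Itga7. Without control pool 3 the log2 fold change of Itga7 was -0.32. Markers of axotomised neurons moved with the groups: 11 of 12 had negative values (91.7%, against 47.7% of all genes). Of these, 4 passed (Atf3, Sprr1a, Gal and Gpr151), 33.3% of the list against 0.129% of all genes. The list was chosen with earlier results of these data known, so these shares say nothing about the list. Its sum was 460 to 468 CPM in control and 370 to 383 CPM in stress pools. Satellite glia markers moved the same way, with 9 of 10 negative (90%, against the same 47.7%) and 0 passing. Mural cell and central nervous system markers also had 90% negative, so that count does not set satellite glia apart. Satellite glia sums were 3674 to 3905 CPM in control and 3353 to 3486 CPM in stress pools. Apoe (mean 1610 and 1441 CPM) and Hmgcs1 (1005 and 957 CPM) were the largest terms. Groups were apart for 5 of the 10 (50%, against 18.1% of all genes) and overlapped for Kcnj10, Glul, Slc1a3, Cadm2 and Ptprz1. The part of the muscle, axotomised neuron and satellite glia markers in the difference of Itga7 was not tested.

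The other laminin-binding alpha subunits differed less. Itga6, which pairs with Itgb1 or Itgb4, had 110, 108 and 103 CPM in control pools and 112, 112 and 100 CPM in stress pools. The groups overlapped, and the log2 fold change was 0.01 ± 0.05 with a 95% interval of -0.11 to 0.13 (adjusted p = 0.97). Itga6 matches 1 pseudogene transcript that could share its reads. Itga3, the alpha subunit that binds laminins of vascular and epithelial basement membranes, had 107, 111 and 105 CPM in control pools and 103, 102 and 92 CPM in stress pools. Its groups did not overlap, but the log2 fold change of -0.13 ± 0.05 did not pass (adjusted p = 0.429), and it was -0.08 without stress pool 3.

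Per transcript length, Itga7 was the most abundant of these alpha subunits in every pool. Its share of the CPM per kb of Itga3, Itga6 and Itga7 was 57.1%, 55.5% and 59% in control pools and 51.9%, 51.1% and 53.5% in stress pools. The share of Itga6 was 23%, 23.3% and 21.5% in control pools and 26.5%, 27% and 25.7% in stress pools. Both sets of shares were apart between groups, and because the shares add up to 100% they restate the lower Itga7. The mean difference in the Itga7 share was -5.04 percentage points, and -5.02 with no correction for length.

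**Figure D2:**
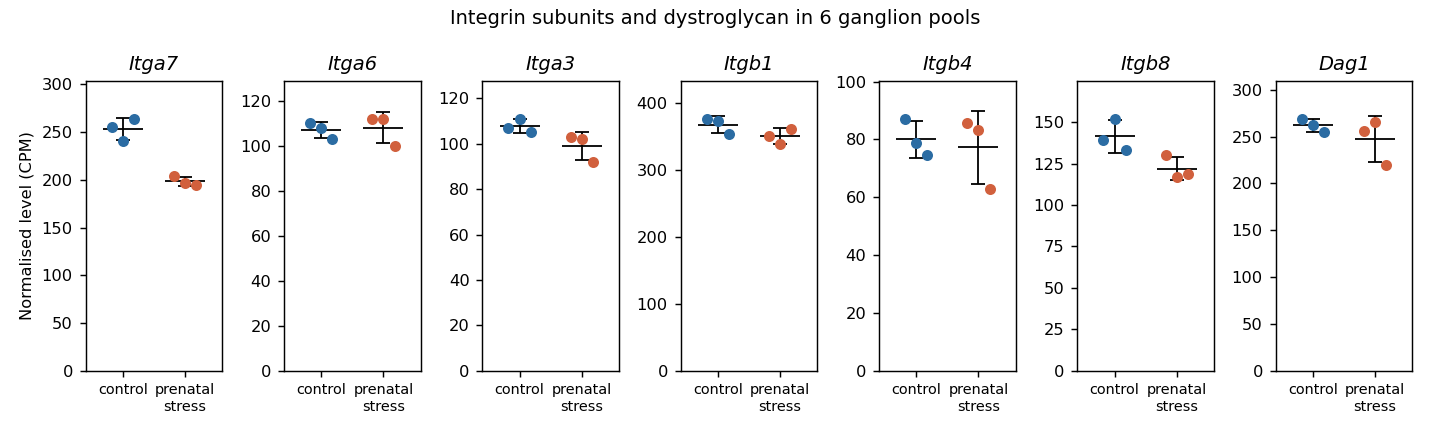
Normalised level in CPM (y axis, from 0, a separate scale in each panel) of 6 integrin subunits and of Dag1 in the 3 control and 3 prenatal stress pools, with points for pools and bars for the mean and SD. Itga7, Itga3 and Itgb8 do not overlap between groups. All but Itgb1 and Itgb8 are lowest in stress pool 3, the rightmost point.

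Among the beta subunits, Itgb1 is the common partner of the laminin, collagen and fibronectin receptors and was the most abundant member per length, at 96.6 CPM per kb in controls. It stood at 377, 374 and 354 CPM in control pools and at 352, 339 and 362 CPM in stress pools. The groups overlapped, and the log2 fold change was -0.07 ± 0.04 (95% interval -0.16 to 0.02, adjusted p = 0.551). Itgb4, the partner of Itga6 in myelinating Schwann cells, had 87.1, 78.7 and 74.5 CPM in control pools and 85.6, 83.3 and 62.7 CPM in stress pools. Its groups overlapped (-0.05 ± 0.12, adjusted p = 0.909), with stress pool 3 the lowest of all. Itgb8 pairs with Itgav and takes part in the activation of latent TGF-beta. It had 139, 152 and 133 CPM in control pools and 130, 117 and 119 CPM in stress pools, so that the groups were just apart. Its log2 fold change of -0.22 ± 0.06 did not pass edgeR (adjusted p = 0.324, 95% interval -0.36 to -0.07) but passed the DESeq2 Wald test (adjusted p = 0.0315). Over all its alternatives the value of Itgb8 lay between -0.27 and -0.17.

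The remaining beta subunits had log2 fold changes of -0.13 for Itgb3, -0.03 for Itgb5, 0.01 for Itgb6, 0.02 for Itgb7 and 0.10 for Itgb2. Of these, 0 had an unadjusted p under 0.05, against 11.1% of all genes. Itgb3, a vitronectin receptor subunit, was at 20.1 to 31.3 CPM, and Itgb5, another partner of Itgav, at 27.7 to 37 CPM. Itgb5 matches 1 pseudogene transcript. The epithelial subunit Itgb6 and the lymphocyte subunit Itgb7 were at 1.33 to 1.97 and 2.31 to 3.51 CPM. Itgb2, the beta subunit of leukocytes, was the most variable member, with a within-group coefficient of variation of 40%. It was lowest in stress pool 1 (3.06 CPM) and highest in stress pool 3 (9.59 CPM), the pools with the lowest and the highest marrow marker sum.

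The remaining alpha subunits, which bind collagen, RGD sites or other ligands, were low apart from Itgav. None passed edgeR (0 of 9 with an unadjusted p under 0.05, against 11.1% of all genes) and 0 passed DESeq2 after adjustment. Itga5, the fibronectin receptor subunit, had 8.11, 9.3 and 8.11 CPM in control pools and 6.96, 7.89 and 7.57 CPM in stress pools. The groups did not overlap, but the log2 fold change of -0.19 ± 0.09 did not pass (adjusted p = 0.479). Itga8, a nephronectin receptor subunit, had 3.98, 3.33 and 1.92 CPM in control pools and 2.21, 2.35 and 2.38 CPM in stress pools. Its log2 fold change was -0.41 ± 0.25 (adjusted p = 0.584), with control pool 3 below the stress pools. That value rested on single pools, at -0.18 without control pool 1 and -0.66 without control pool 3. The collagen receptor subunit Itga2 had 7.13, 7.73 and 6.43 CPM in control pools and 5.91, 6.31 and 6.89 CPM in stress pools (-0.16 ± 0.10, adjusted p = 0.597). Itgav, which pairs with several beta subunits, was the most abundant of these alpha subunits at 48 to 58.7 CPM (-0.07 ± 0.08). The other values were 0.08 for Itga1, 0.07 for Itga10, -0.09 for Itga11, 0.10 for Itga4 and 0.03 for Itga9, at 3.16 to 17.3 CPM. Itga10 shares 33.53% of its exon bases with an annotated gene on the same strand, so its counts are uncertain.

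Dystroglycan (Dag1), a laminin receptor that is not an integrin, came after Itgb1 and Itga7 in level per length. It stood at 46.2 CPM per kb in controls against 63 for Itga7. The ranges of these 3 genes per kb did not overlap over the 6 pools. Dag1 had 269, 262 and 255 CPM in control pools and 256, 266 and 220 CPM in stress pools. The groups overlapped, and stress pool 3 again had the lowest value (-0.08 ± 0.07, 95% interval -0.24 to 0.08, adjusted p = 0.695).

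**Figure D3:**
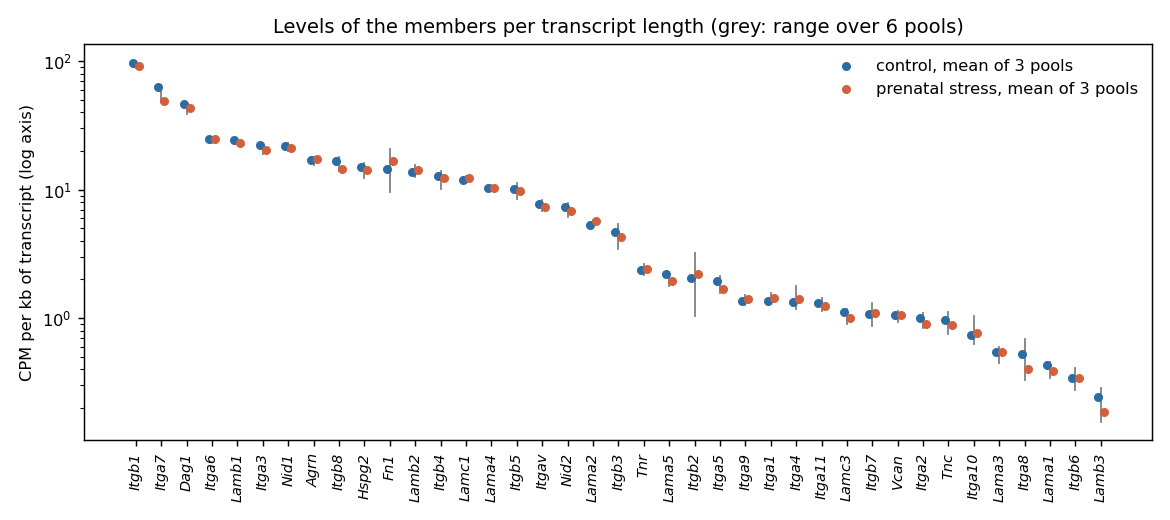
CPM per kb of the longest GENCODE M21 transcript (y axis, log scale) for the members (x axis, ordered by the control mean), with points for the group means and grey lines for the range over 6 pools. Itgb1, Itga7 and Dag1 lead and Lamb3 is last, and the ranges of the leading 3 do not overlap.

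The laminin chains that were most abundant were Lama4 and Lama2 among the alpha chains, and Lamb1 and Lamb2 among the beta chains. Lama2 is the alpha chain of the Schwann cell basement membrane, Lama4 occurs in nerve and blood vessels, and Lama5 is common in mature basement membranes. Of the CPM per kb of alpha chains in control pools, Lama4 made up 54.8% ± 0.535, Lama2 28.3% ± 0.408 and Lama5 11.7% ± 0.412 (SD, n = 3). Lama1 and Lama3 made up 2.29% and 2.92%. Among beta chains Lamb1 made up 63.4% ± 2.11 and Lamb2 35.9% ± 2.02. These shares compare transcripts per length of the longest annotated transcript and are not protein amounts.

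None of the 11 laminin chains passed the test, and 0 passed the DESeq2 test. An unadjusted p under 0.05 was found for 1 of them (9.09%, against 11.1% of all genes). Lama5 had 24.9, 25.9 and 24.3 CPM in control pools and 23.9, 22.7 and 20.3 CPM in stress pools. The groups were just apart, and the log2 fold change of -0.16 ± 0.07 did not pass (adjusted p = 0.437). Lama2 had 53.9, 52.1 and 48.2 CPM in control pools and 53.9, 55.6 and 54.4 CPM in stress pools (0.09 ± 0.05, adjusted p = 0.518). Lama4 had 65.5, 62.6 and 59.5 CPM in control pools and 63, 62.3 and 62.7 CPM in stress pools, with a 95% interval of -0.09 to 0.10 around a log2 fold change of 0.00. As shares of alpha chains per kb, Lama2 was 27.9% to 28.7% in control and 29.3% to 30.7% in stress pools, and Lama5 was 11.2% to 11.9% in control and 9.49% to 11% in stress pools. The groups were apart in both shares and overlapped in the shares of Lama1, Lama3 and Lama4. Alpha chain shares add up to a fixed total, so they depend on each other, and the groups overlapped in the CPM of Lama2 itself. In CPM, the groups were apart for 18.1% of all genes.

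Lamb1, the usual beta chain of nerve laminin, had the smallest spread of all members, with a within-group coefficient of variation of 2.73%. It had 140, 144 and 137 CPM in control pools and 134, 138 and 130 CPM in stress pools (-0.07 ± 0.04, adjusted p = 0.537). Lamb2, the beta chain of synaptic and kidney basement membranes, had 85.4, 73.4 and 73.9 CPM in control pools and 87.1, 81.6 and 70.4 CPM in stress pools (0.04 ± 0.09). Lamc1, the gamma chain of most laminins, had 93.1, 91.3 and 85.5 CPM in control pools and 91.2, 97.3 and 95.3 CPM in stress pools (0.07 ± 0.04, adjusted p = 0.574). These groups all overlapped.

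The minor chains were low, and 0 of those named here passed the test. Lamc3 had 6.66, 6.84 and 6.3 CPM in control pools and 6.12, 6.34 and 5.27 CPM in stress pools (-0.16 ± 0.09). Lama1, an alpha chain of early embryonic basement membranes, had 3.83, 4.1 and 4.37 CPM in control pools and 3.85, 3.28 and 3.89 CPM in stress pools (-0.16 ± 0.11). Lama3 and Lamb3 are chains of the laminin that anchors epithelium. Lamb3 had 1.38, 0.924 and 1.22 CPM in control pools and 0.749, 1.14 and 0.813 CPM in stress pools (-0.39 ± 0.23, adjusted p = 0.57), while Lama3 (-0.01) was at 4.75 to 6.27 CPM.

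**Figure D4:**
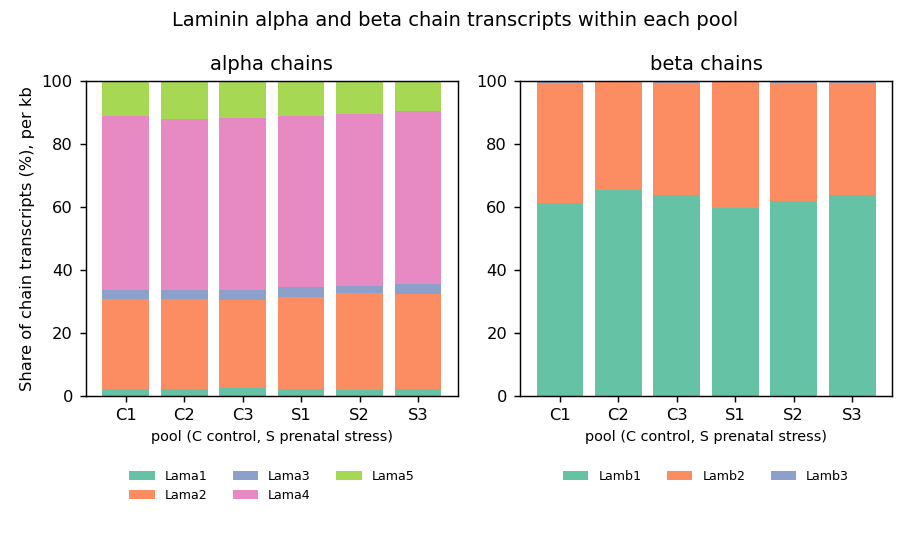
Share of each laminin chain in the CPM per kb of its alpha or beta class (y axis, percent) within each of the 6 pools (x axis, C1 to C3 control and S1 to S3 prenatal stress). Lama4 and Lamb1 lead their class in every pool, and Lamb3 stays under 1% (0.396% to 0.715%).

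The proteins that link laminin to the rest of the sheet did not pass either. At an unadjusted p under 0.05 there were 0 of 4, against 11.1% of all genes. Nid2, the second nidogen, had 35, 38.2 and 34.8 CPM in control pools and 33, 36 and 30 CPM in stress pools (-0.12 ± 0.07, adjusted p = 0.564). Nid1, which joins laminin to collagen IV, was at 121 to 141 CPM in control and 123 to 133 CPM in stress pools (-0.04 ± 0.06), and it matches 1 pseudogene transcript. Perlecan (Hspg2) was at 203 to 219 CPM in control and 177 to 228 CPM in stress pools (-0.07 ± 0.09), with stress pool 3 the lowest. Agrin (Agrn), the proteoglycan that clusters acetylcholine receptors at the nerve-muscle synapse, was at 135 to 154 CPM in control and 138 to 153 CPM in stress pools (0.01 ± 0.06).

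Among the interstitial and neural matrix glycoproteins, fibronectin (Fn1) varied most, from 79.5 to 170 CPM in control and from 120 to 173 CPM in stress pools. Pool 1 was the highest in both groups, and the log2 fold change of 0.20 ± 0.27 had a 95% interval of -0.43 to 0.83. Tenascin-C (Tnc), a matrix protein of development and repair, was at 5.38 to 7.9 CPM (-0.13 ± 0.15). Tenascin-R (Tnr), made mainly by neural cells, was at 26.3 to 32.2 CPM (0.02 ± 0.09), and versican (Vcan), a chondroitin sulfate proteoglycan, at 11.5 to 14.1 CPM (0.00 ± 0.09).

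Other genes of the same machinery were read from pathway lists, and 0 genes of these 5 lists passed edgeR (against 0.129% of all genes). Of 29 tested genes of integrin-linked adhesion, 16 had negative values and the median was -0.02. Cd151, a tetraspanin that associates with laminin-binding integrins, had 272, 263 and 265 CPM in control pools and 251, 245 and 241 CPM in stress pools (-0.12 ± 0.03, adjusted p = 0.297). The adaptor kinase Ilk stood at -0.06 ± 0.03, and the muscle protein gene Itgb1bp2 at 3.4 CPM in control pool 3 and 0.288 to 0.431 CPM in the other pools. Of 23 genes of the dystrophin complex and of dystroglycan glycosylation, 15 had positive values and the median was 0.02. The mannosyltransferase Pomt2 had 31.8, 32.1 and 31.4 CPM in control pools and 34.9, 35.9 and 35 CPM in stress pools (0.15 ± 0.03, adjusted p = 0.26). The sarcoglycan Sgcd stood at 0.48 ± 0.18. The groups of Cd151 and Pomt2 did not overlap.

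Of 18 collagen IV and other basement membrane genes, 9 had negative values and the median was -0.00. Col18a1, a vascular basement membrane collagen, had 49.6, 47 and 38.1 CPM in control pools and 39.4, 34 and 32.3 CPM in stress pools (-0.35 ± 0.11, adjusted p = 0.366). Egflam, a dystroglycan ligand, stood at -0.19 ± 0.07 and the peroxidase Pxdn at 0.13 ± 0.06. Of 17 genes of neural and interstitial matrix, 9 had negative values, with Thbs4 at -0.23 ± 0.07, Cspg4 at -0.16 ± 0.10 and Bcan at -0.10 ± 0.07. Of 25 matrix proteases and inhibitors, 15 had negative values and the median was -0.05. The inhibitor Timp1 had 7.06, 4.47 and 6.48 CPM in control pools and 3.87, 2.79 and 4.14 CPM in stress pools (-0.74 ± 0.21, adjusted p = 0.327), so the groups did not overlap. The protease Adamts5 stood at 0.20 ± 0.06 and Mmp16 at -0.27 ± 0.07.

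Members also varied among pools of one group. The within-group coefficient of variation had a median of 8.1% over the members. Stress pool 3 held the lowest value for 12 of 40 members and control pool 2 the highest for 12. In stress pool 3 the 12 markers of myelinating Schwann cells summed to 7243 CPM, against 8294 to 9489 CPM in the other pools. Itgb4, Dag1, Hspg2 and Lamb2 were among the 12 members lowest in that pool, as were Itga3, Itga6, Itga7, Itgb5, Lama5, Lamb1, Lamc3 and Nid2. Lama2, the alpha chain of the Schwann cell basement membrane, was not (54.4 CPM there, 48.2 to 53.9 CPM in control pools). Lamc1 was not either (95.3 CPM there, 85.5 to 93.1 CPM in control pools). GC content of the 12 members lowest in stress pool 3 ran from 48.9% (Itga6) to 60.9% (Hspg2). That of the 7 members highest in stress pool 3 ran from 41.1% (Itga4) to 58% (Itgb7). Whether the Schwann cell share of the pool or GC content sets any of these values was not tested.

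**Figure D5:**
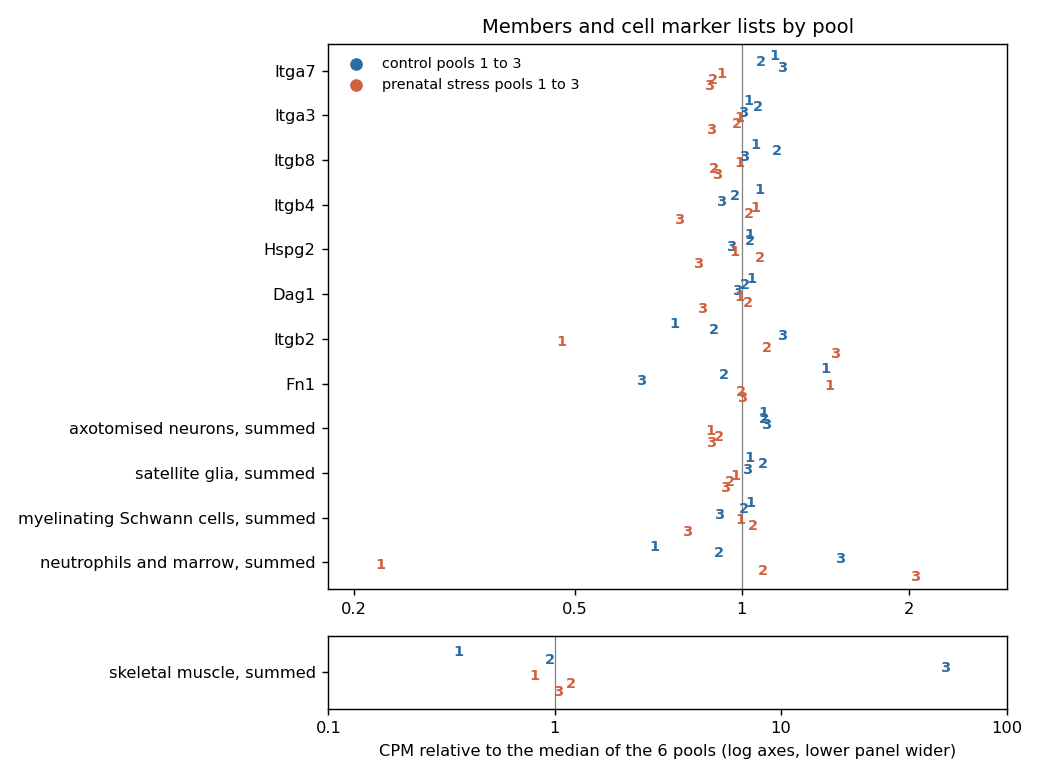
Level of 8 members and summed level of 5 marker lists in each pool (numbers 1 to 3, coloured by group), relative to the median of the 6 pools (x axis, log scale, wider in the lower panel). Itga7, Itga3, Itgb8 and the sums of the axotomised neuron and satellite glia markers are apart between groups. Itga7, Itga3, Itgb4, Hspg2 and Dag1 are lowest in stress pool 3, as is the sum of the Schwann cell markers. Only control pool 3 is high in muscle markers.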

How the data were processed

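The authors deposited raw counts of reads per gene symbol, 1 file per library. Libraries were stranded and poly-A selected from 3000 ng of RNA with 11 PCR cycles, per the labels' protocols. FastQC, STAR 2.4 and HTSeq 0.9.1, and the builds GRCm39 and mm10, are named in the submitters' processing notes. The build behind these counts, and whether counting used strand, is not given in the sources used here. No coordinates are therefore printed, and members that overlap antisense genes could share reads. Reads given to no gene (15.3% to 16.2% of a file) were left out.

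Genes were tested with edgeR 4.0.16 (R 4.3.3): TMM factors, filterByExpr (minimum count 10), the quasi-likelihood F test over all 20146 genes that passed, and Benjamini-Hochberg adjusted p under 0.05. All 40 members passed that filter. The SE was obtained from the log2 fold change and the F statistic (their ratio, after taking the root of F). TMM-scaled CPM gave the levels. Lengths and sequences come from GENCODE M21, which holds all 40 members. Pseudogene matches were made with minimap2 2.31-r1302 (at least 90% identity over 200 bases). The tests were also run on simulated counts in which the changed genes differed by more than Itga7 did here. Recovery of differences as small as those of the members was not checked. Library pairs, within and between groups, differed by more than sampling noise (chi-square per degree of freedom at least 10.89 over 15 pairs). Each pool was counted as 1 replicate. That spread cannot show whether pools are independent in litter or batch, which the labels do not name.

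Same-numbered pools deviated together (correlations 0.34, 0.22 and 0.13 over genes). Differently numbered pools gave -0.3 to 0.12, the highest being control pool 3 with stress pool 2, so the third pair is barely distinct. All same-numbered correlations were over 0.1, but so was that of control pool 3 with stress pool 2 (0.12). Whether the numbers of the labels pair the pools is therefore not settled, and no label explains the numbers. The block was used only as an alternative. Alternatives were other scalings, filters, tests (DESeq2 1.42.0, limma 3.58.1 voom), a block, an offset for GC content and length (mgcv 1.9.3) and leaving out each pool.

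The members and lists were chosen with earlier results of these data known. Per-pool values were given for members that passed, for the 16 of smallest p, for Itga3, Itga6, Itga7, Itgb1, Itgb4, Dag1 and for laminin chains of at least 10 CPM, and up to 3 genes of smallest p were named per pathway list. Fn1, Itgb2 and some marker genes were described further after their values were seen. Values of 1 member and of 1 pathway gene are not reported here, but both stay in the counts.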

Additional observations from a re-analysis of the deposited data

How the results depend on the processing

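The count of genes passing the test was 26 (17 higher, 9 lower). It was 49 with no low-count filter, 330 with the DESeq2 Wald test (158 higher, 172 lower) and 2 to 14 when 1 pool was left out (14, 2 and 13 without control pools 1, 2 and 3, and 4, 10 and 10 without stress pools 1, 2 and 3). With the GC and length offset together with the replicate block it was 31 (15 higher, 16 lower). The count of members passing was 1 and became 2 with the DESeq2 Wald test (Itga7 and Itgb8), 0 with the replicate block and 0 with the GC and length offset. It was 0 to 0, that is 0 in each case, when 1 pool was left out, with 2 to 6 members at an unadjusted p under 0.05. The replicate block changed no other call of a member. Of 40 members, 18 changed sign in at least 1 of 16 alternatives, and Itga7 was not among them. The 80 group levels moved by less than 1 SD with plain library totals. Leaving out a pool leaves fewer samples, and for the other changes the cause was not tested. With 3 pools a group, differences of the size of those in Itga3, Itgb8 and Lama5 did not pass edgeR after adjustment over all genes.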

Other observations

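Integrin alpha subunits of leukocytes and platelets, which the symbol rule leaves out (Itgal, Itgam, Itgax, Itgad, Itgae and Itga2b), were low in the ganglia. Together they summed to 11.7, 13.3 and 15.6 CPM in control pools 1 to 3 and to 9.81, 13 and 17.7 CPM in stress pools 1 to 3. The sum was lowest in stress pool 1 and highest in stress pool 3, as were Itgb2 (3.06 and 9.59 CPM) and the neutrophil and marrow markers (44.5 and 410 CPM). None of the 6 passed edgeR's test (0 at an unadjusted p under 0.05, against 11.1% of all genes). Itgae, the alpha subunit of tissue-resident lymphocytes, was at 0.987 to 1.23 CPM in control and 0.713 to 0.93 CPM in stress pools (log2 fold change -0.33 ± 0.18, edgeR adjusted p = 0.544), and Itgal, the alpha subunit of a lymphocyte adhesion receptor, stood at 0.31 ± 0.38.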
